A study of Mus musculus with 12 samples.

Results

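The replication-dependent histone genes were followed in lineage-depleted bone marrow of E4bp4-/- and E4bp4+/+ mice. A gene was taken when a row of the array's value table was annotated to it alone and its symbol was one of H1f1 to H1f6, or H2ac, H2bc, H3c or H4c followed by a number. This gave 27 genes of the 19937 genes with a row of their own: 5 H1, 4 H2A, 9 H2B, 3 H3 and 6 H4 genes. Each of the 27 had exactly 1 such row, and all 27 passed the filter on dim rows. RefSeq lists 64 mouse genes with a symbol of this form, so 37 had no row of their own here. A further 22 rows were annotated to several histone genes at once and are described apart.

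The series title names the search for candidate genes regulated by E4bp4. E4bp4, also called Nfil3, is a basic leucine zipper transcription factor. RNA of 6 E4bp4-/- and 6 E4bp4+/+ mice was measured on 12 GeneChip Mouse Gene 1.0 ST arrays. Marrow came from the hind legs, and magnets removed cells with antigens of mature lineages (Ter119, GR1, CD11b, B220, CD2 and NK1.1), which leaves a fraction rich in stem and progenitor cells. The labels give no age, sex or strain, and do not say which part of E4bp4 was deleted. Values are log2 levels, so a difference of 1 is a doubling, and every difference below is E4bp4-/- minus E4bp4+/+.

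Core histones H2A, H2B, H3 and H4 form the protein spool around which DNA is wound, and the linker histone H1 binds where the DNA enters and leaves it. The replication-dependent genes are grouped in clusters, the core histone genes mostly as near-identical copies. They are transcribed mainly in S phase, when new DNA needs new histones. Their mRNAs end in a stem-loop in place of a poly(A) tail and are bound there by Slbp. In bone marrow they are made in dividing progenitors. In RNA of bulk marrow, fewer cells in S phase and less histone RNA per cell cannot be told apart. Because most coding sequences within a core histone class are almost the same, probes of one gene can also bind the RNA of its copies. Values of single genes are uncertain to that extent.

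Promoters of the genes that the results turn on are shown first, from RefSeq's table on GRCm38.p6, which held 23 of the 27 genes. Each line gives the 250 bases before the annotated start, 5′ to 3′ on the gene's strand. Capitals mark TATAAA (the TATA box), CCAAT (the CCAAT box) and ATTTGCAT (the octamer, a known element of H2B promoters) on either strand. The H2B genes H2bc3 and H2bc22 are shown because both had an unadjusted p under 0.05. H1f3, H3c4 and H3c15 are shown because the same 4 arrays were lowest in all of them.
H2bc3 (chr13:23746484-23746733, + strand): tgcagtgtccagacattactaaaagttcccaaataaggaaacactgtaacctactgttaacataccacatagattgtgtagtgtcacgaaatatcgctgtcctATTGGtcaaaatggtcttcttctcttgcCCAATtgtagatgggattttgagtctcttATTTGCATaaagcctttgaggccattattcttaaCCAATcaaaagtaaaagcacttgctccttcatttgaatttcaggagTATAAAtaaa
H2bc22 (chr13:21787238-21787487, + strand): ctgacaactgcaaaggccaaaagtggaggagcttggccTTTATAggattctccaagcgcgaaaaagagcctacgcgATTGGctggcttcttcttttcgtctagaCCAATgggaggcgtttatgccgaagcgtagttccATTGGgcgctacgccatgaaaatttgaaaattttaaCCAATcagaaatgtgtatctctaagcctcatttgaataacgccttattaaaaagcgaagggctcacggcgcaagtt
H1f3 (chr13:23554782-23555031, + strand): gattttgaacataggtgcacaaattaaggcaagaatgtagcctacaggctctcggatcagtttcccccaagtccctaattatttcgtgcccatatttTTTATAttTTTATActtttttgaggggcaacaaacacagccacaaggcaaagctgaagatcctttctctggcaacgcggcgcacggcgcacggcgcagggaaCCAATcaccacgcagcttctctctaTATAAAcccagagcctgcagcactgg
H3c4 (chr13:23575513-23575762, + strand): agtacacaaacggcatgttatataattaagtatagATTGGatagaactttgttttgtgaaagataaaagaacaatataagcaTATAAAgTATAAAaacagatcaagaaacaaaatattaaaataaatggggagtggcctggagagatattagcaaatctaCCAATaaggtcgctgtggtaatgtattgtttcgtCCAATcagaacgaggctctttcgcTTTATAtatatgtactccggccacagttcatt
H3c15 (chr3:96239128-96239377, - strand): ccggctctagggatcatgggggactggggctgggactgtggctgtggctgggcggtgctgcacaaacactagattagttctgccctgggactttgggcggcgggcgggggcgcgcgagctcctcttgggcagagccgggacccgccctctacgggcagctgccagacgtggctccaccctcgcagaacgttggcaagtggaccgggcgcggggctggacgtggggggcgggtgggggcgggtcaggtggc

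H2ac8 and H2bc8 start back to back and share the 179 bases between their starts, which are shown as 1 stretch on the strand of H2bc8.
H2ac8 and H2bc8 (chr13:23571221-23571399, + strand): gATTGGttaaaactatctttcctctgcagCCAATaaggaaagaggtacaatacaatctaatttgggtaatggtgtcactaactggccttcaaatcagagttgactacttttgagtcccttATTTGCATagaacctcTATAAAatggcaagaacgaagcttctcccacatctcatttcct

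The octamer ATTTGCAT stood in the 250 bases before the start of 5 of 7 H2B and 3 of 4 H2A genes, and in none of the 5 H1, 2 H3 and 5 H4 promoters. The share with an octamer was 34.8% of the 23 histone promoters, against 1.6% of all 32851 promoters of the table. The windows of H2ac8 and H2bc8, and of H2ac1 and H2bc1, overlap and so count the same letters for both genes, since their starts lie 179 and 280 bases apart. CCAAT was found in 19 of the 23 histone promoters and in 33.8% of all promoters. TATAAA was found in 14 of the 23 and in 12.4% of all. The E4BP4 motif, searched as TTATGTAA or TTACGTAA on both strands, was found in 0 of the 23 histone windows and in 0.931% of all windows. A match is a match of letters, not a bound site.

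The progenitor genes were well above the array medians of 6.50 to 6.62, and the antigens of the depletion were mixed. The mean log2 level of Kit, Cd34, Flt3 and Meis1 ran from 10.14 to 10.49 on E4bp4-/- arrays, against 9.86 to 10.22 on E4bp4+/+ arrays. Cd2, the antigen CD2, was at 5.22 in E4bp4-/- and 5.19 in E4bp4+/+ marrow, near the arrays' 20th percentile of at most 4.99, and Ly6g, a GR1 antigen, was at 5.24 in E4bp4-/- and 4.97 in E4bp4+/+ marrow. Itgam, the gene of CD11b, was at 7.69 in E4bp4-/- and 7.39 in E4bp4+/+ marrow, and at 8.93 on E4bp4-/- replicate 1. Ptprc, which encodes CD45 and its form B220, was at 8.88 in E4bp4-/- and 8.75 in E4bp4+/+ marrow. Nfil3 itself averaged 6.49 ± 0.23 in E4bp4-/- and 7.18 ± 0.25 in E4bp4+/+ marrow (SD, n = 6 each), with groups that did not overlap, a limma adjusted p of 0.14 and an exact permutation p of 0.00216. Markers of several cell types were higher in E4bp4-/- marrow by difference, among them all 4 progenitor, all 4 megakaryocyte and all 5 B precursor genes, while 4 of 5 erythroid genes were lower; none passed the adjusted threshold, and their part in the histone levels was not tested. E4bp4-/- replicate 1 stood apart in granulocyte genes: the mean of 6 neutrophil granule genes reached 9.68 there, where the E4bp4+/+ arrays ran from 6.40 to 7.94. The counts and class medians below are also given without that array where its removal moved them by over 1.5 times.

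No histone gene passed limma's Benjamini-Hochberg threshold of 0.05 over all 29541 transcript clusters, and the lowest adjusted p of the 27 was 0.255. The share of all transcript clusters called was 0%, so the histone genes did not stand apart in that count. At an unadjusted p under 0.05, 4 of the 27 were lower in E4bp4-/- marrow and 0 were higher. Over all transcript clusters 6.39% were lower and 8.47% higher at that threshold, and 14.9% in either direction, beside 14.8% of the histone genes in either direction. The split over all transcript clusters, 1889 lower and 2502 higher, became 1937 and 1714 after quantile normalisation, 3711 and 1044 after median centring, and 1636 and 1480 with a 50th percentile filter. The 2 genotypes overlapped in every one of the 27, while 1.27% of all transcript clusters did not overlap, 0.65% on the lower and 0.619% on the higher side. By count in either direction the histone genes were near the background. Without E4bp4-/- replicate 1, E4bp4-/- replicate 4 or E4bp4+/+ replicate 6 in turn, 1 histone gene, H2ac8, kept an unadjusted p under 0.05 on the lower side.

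Most differences were negative. The difference was below 0 for 23 of the 27 histone genes, or 85.2%, beside 44.1% of all transcript clusters tested. The median difference was -0.07 log2 for the histone genes and 0.02 for all transcript clusters. Without E4bp4-/- replicate 1, 18 of the 27 were below 0 and the median was -0.05. Without E4bp4-/- replicate 4 the count was 17, and without E4bp4+/+ replicate 6 it was 20, with a median of -0.04 in both. After quantile normalisation the count was 18, beside 47.75% of all transcript clusters below 0. After median centring it was 26, beside 59.6%. Below the median of all transcript clusters lay 24 histone genes in the main fit, 21 after quantile normalisation and 24 after median centring. The 27 differences are not independent, since the genes share arrays and many share near-identical sequence, and no test was made of the count.

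**Figure D1:**
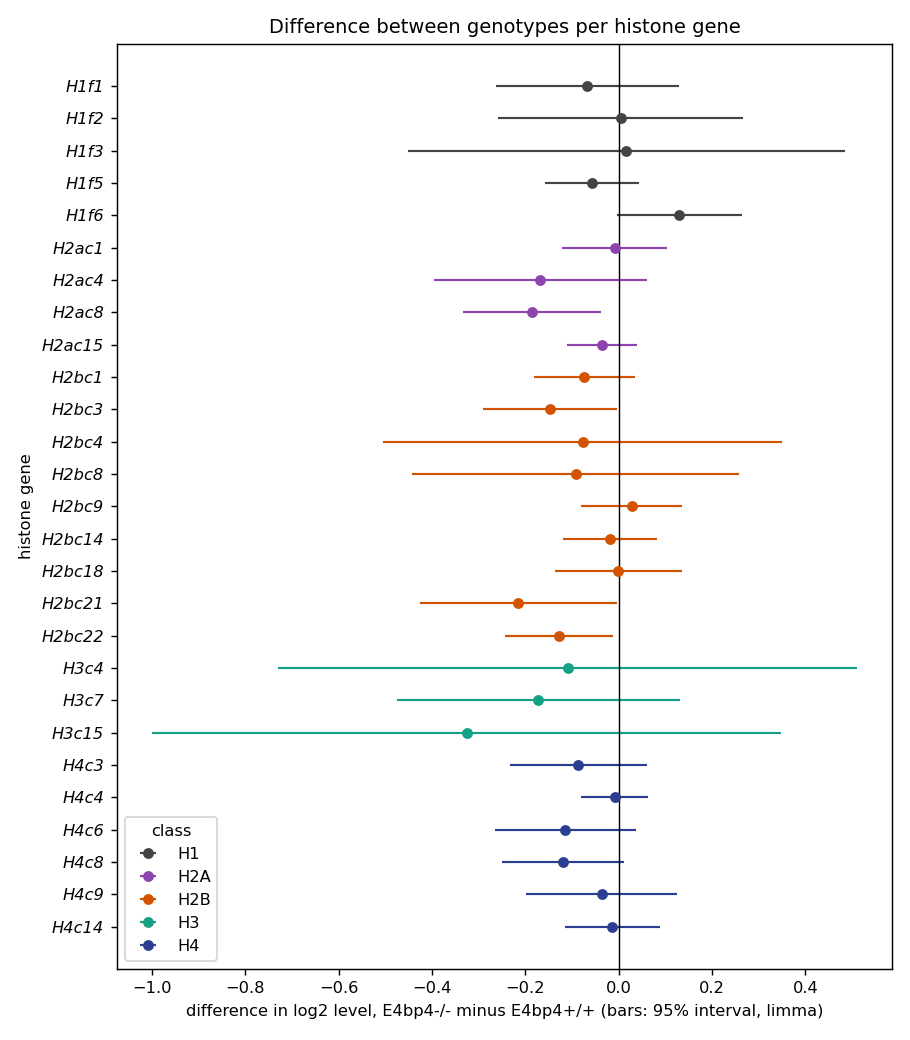
Difference in log2 level between E4bp4-/- and E4bp4+/+ marrow for each of the 27 histone genes, coloured by class; points are limma estimates and bars their 95% intervals. Most points lie left of 0, and the intervals of H2ac8, H2bc3, H2bc21 and H2bc22 alone do not cross it.

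Among the H2A and H2B genes, 4 had an unadjusted p under 0.05, all lower in E4bp4-/- marrow. H2ac8 was brighter than 38.7% of the transcript clusters tested, H2bc22 than 41.7%, H2bc21 than 51.2% and H2bc3 than 96.7%. By level, 3 of the 4 were among the 11 histone genes with a mean under 9, and 0 among the 7 of 12 or more. H2ac8, an H2A gene (Entrez Gene 319166), ran from 6.19 to 6.41 with a median of 6.35 in E4bp4-/- marrow, against 6.32 to 6.69 with a median of 6.49 in E4bp4+/+ marrow. All 6 E4bp4-/- arrays lay below the E4bp4+/+ median, and 4 of the E4bp4+/+ arrays lay above every E4bp4-/- array, while E4bp4+/+ replicates 2 and 5 lay within the E4bp4-/- range. The difference was -0.19 ± 0.07 log2 (SE, n = 6 each), with a limma adjusted p of 0.255 and an exact permutation p of 0.0238. It kept an unadjusted p under 0.05 with each single array left out, the differences then running from -0.22 to -0.15.

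H2bc22, an H2B gene (Entrez Gene 319188), ran from 6.40 to 6.64 with a median of 6.51 in E4bp4-/- marrow, against 6.57 to 6.82 with a median of 6.62 in E4bp4+/+ marrow. In H2bc22, 4 of the E4bp4-/- arrays lay below every E4bp4+/+ array. The difference was -0.13 ± 0.05 log2 (SE, n = 6 each; limma adjusted p 0.297; exact permutation p = 0.0238). E4bp4+/+ replicate 6, at 6.82, was far above the rest of its group, and without it the difference was -0.09. The unadjusted p of 0.032 was over 0.05 without E4bp4-/- replicate 1, 2 or 4 or E4bp4+/+ replicate 4 or 6, reaching 0.0752.

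H2bc21 (Entrez Gene 319190), the gene of the mouse variant H2BE known from olfactory neurons, ran from 6.80 to 7.14 with a median of 7.07 in E4bp4-/- marrow. It ran from 6.98 to 7.64 with a median of 7.21 in E4bp4+/+ marrow, where no array but replicate 6 was above 7.22. All 6 E4bp4-/- arrays lay below the E4bp4+/+ median. The difference was -0.22 ± 0.10 log2 (SE, n = 6 each; limma adjusted p 0.33; exact permutation p = 0.0476), and -0.13 without E4bp4+/+ replicate 6. The unadjusted p of 0.0459 was over 0.05 without E4bp4-/- replicate 1, 2, 4 or 5 or E4bp4+/+ replicate 1, 3, 5 or 6, reaching 0.104.

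H2bc3 (Entrez Gene 319178), another H2B gene, ran from 11.52 to 11.77 with a median of 11.65 in E4bp4-/- marrow and from 11.66 to 11.96 with a median of 11.74 in E4bp4+/+ marrow. E4bp4+/+ replicates 1 and 2, both at 11.96, made up the upper end. The difference was -0.15 ± 0.07 log2 (SE, n = 6 each; limma adjusted p 0.326; exact permutation p = 0.0649). It was -0.11 without either of those arrays. The unadjusted p of 0.0444 was over 0.05 without E4bp4-/- replicate 1, 3, 4 or 6 or E4bp4+/+ replicate 1, 2 or 6, reaching 0.102. That limma p was 0.0805 after quantile normalisation, 0.0556 with the replicate number as a block and 0.0162 after median centring.

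**Figure D2:**
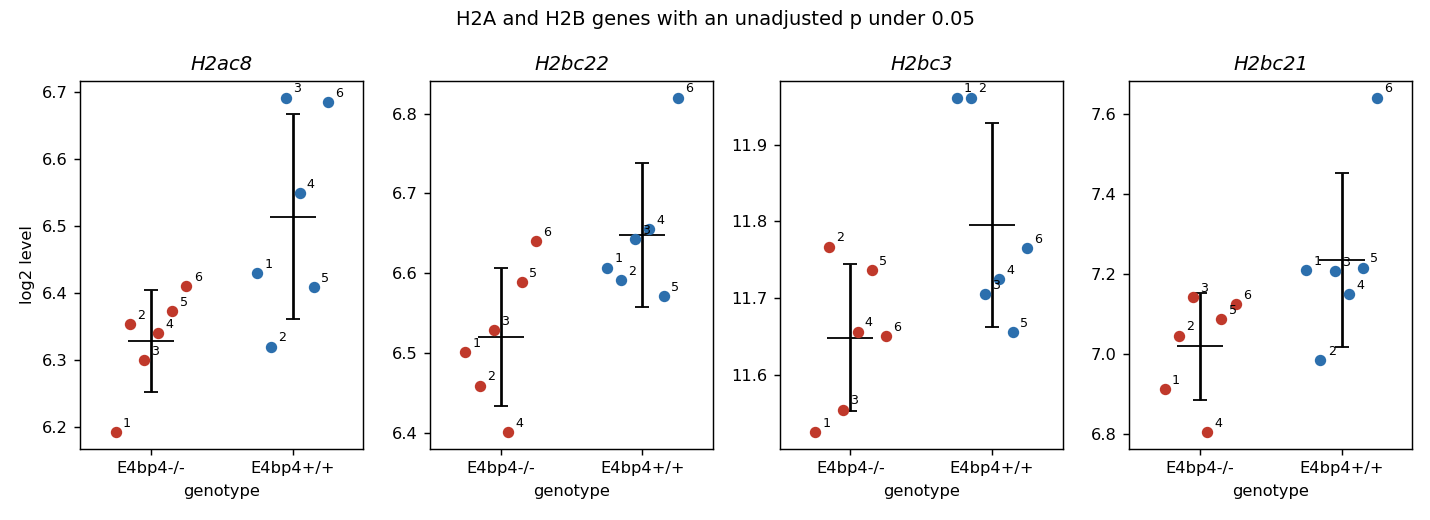
Log2 levels of H2ac8, H2bc22, H2bc3 and H2bc21 on each array, E4bp4-/- left and E4bp4+/+ right; numbers are replicate numbers, and bars give the mean ± SD of 6 arrays. In each panel the groups overlap, and E4bp4+/+ replicate 6 is the highest array for H2bc22 and H2bc21.

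The rest of the H2A class was also below 0, although H2ac1 was above 0 after quantile normalisation and with array weights. H2ac4 averaged 10.57 ± 0.19 in E4bp4-/- and 10.74 ± 0.20 in E4bp4+/+ marrow (SD, n = 6 each), a difference of -0.17 with a 95% interval from -0.40 to 0.06. H2ac15, among the brightest rows, averaged 13.36 ± 0.04 in E4bp4-/- and 13.40 ± 0.04 in E4bp4+/+ marrow, a difference of -0.04. H2ac1 encodes a testis H2A and differed by -0.01 ± 0.05 (SE). The class median was -0.10 over 4 genes, and -0.07 without E4bp4-/- replicate 3.

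In the H2B class 8 of 9 genes were below 0, of which H2bc14 and H2bc18 were above 0 after quantile normalisation and with array weights, and the class median was -0.08. That median was -0.05 without E4bp4-/- replicate 4 or E4bp4+/+ replicate 1. H2bc9 was the exception, at 12.07 ± 0.08 in E4bp4-/- and 12.04 ± 0.08 in E4bp4+/+ marrow (SD, n = 6 each), a difference of 0.03 that turned to -0.01 after median centring. H2bc14 differed by -0.02 ± 0.05 (SE) and H2bc18 by -0.0006 ± 0.06. H2bc1, the testis H2B gene opposite H2ac1, differed by -0.07 ± 0.05. H2bc4 and H2bc8 were uneven within both groups, with standard errors of 0.20 and 0.16, so their differences of -0.08 and -0.09 have wide intervals.

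H2ac8 and H2bc8, the back-to-back pair whose shared stretch is printed above, had their lowest levels on different arrays. H2bc8 was lowest on E4bp4-/- replicate 4, at 10.57, where H2ac8 was at 6.34, close to its group median of 6.35. H2ac8 was lowest on E4bp4-/- replicate 1, at 6.19. H2bc8 overlapped widely between genotypes, from 10.57 to 11.48 in E4bp4-/- and from 10.95 to 11.58 in E4bp4+/+ marrow. Without E4bp4-/- replicate 4 its difference was 0.03.

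H1 was the class without a common direction, with 2 genes below 0, 3 above and a median of 0.00 that ran from -0.06 to 0.06 with single arrays left out and was -0.02 without E4bp4-/- replicate 1. H1f6, the testis-specific H1t, had the largest positive difference of the 27. It ran from 5.43 to 5.79 with a median of 5.52 in E4bp4-/- marrow, against 5.36 to 5.51 with a median of 5.43 in E4bp4+/+ marrow, and all 6 E4bp4-/- arrays lay above the E4bp4+/+ median. The difference was 0.13 ± 0.06 log2 (SE, n = 6 each; limma adjusted p 0.351; exact permutation p = 0.0563). Its unadjusted p of 0.0572 was between 0.0315 and 0.127 with single arrays left out, and under 0.05 without E4bp4-/- replicate 1, 3 or 4 or E4bp4+/+ replicate 6. It was 0.0371 with array weights, 0.115 after quantile normalisation and 0.175 after median centring. H1f6 was the dimmest of the 27, brighter than 18.3% of the transcript clusters tested, and it was the 1 histone gene that a 50th percentile filter removed.

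H1f5 and H1f1 encode somatic linker histones. H1f5 averaged 12.16 ± 0.08 in E4bp4-/- and 12.22 ± 0.07 in E4bp4+/+ marrow (SD, n = 6 each), with a 95% interval of the difference from -0.16 to 0.04. H1f1 differed by -0.07 ± 0.09 log2 (SE), and by 0.01 without E4bp4+/+ replicate 6, whose level of 12.57 was far above the other E4bp4+/+ arrays. H1f2 differed by 0.00 ± 0.12 and H1f3 by 0.02 ± 0.22. The 95% interval of H1f3 ran from -0.45 to 0.48, a wide range that holds differences of either sign. After median centring H1f2 was at -0.04 and H1f3 at -0.02.

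All 6 H4 genes were below 0, with a class median of -0.06, although H4c4 and H4c14 were just above 0 after quantile normalisation and with array weights. The class median was -0.02 without E4bp4-/- replicate 1, -0.03 without E4bp4+/+ replicate 6 and -0.02 with array weights. H4c8 ran from 7.09 to 7.32 with a median of 7.19 in E4bp4-/- marrow, against 7.19 to 7.47 with a median of 7.29 in E4bp4+/+ marrow. In H4c8, 3 of the E4bp4-/- arrays lay below every E4bp4+/+ array. The difference was -0.12 ± 0.06 log2 (SE, n = 6 each; limma adjusted p 0.377; exact permutation p = 0.0866). Its unadjusted limma p of 0.0709 was 0.0482 with the replicate number as a block, 0.0277 after quantile normalisation and 0.0217 after median centring. H4c6 differed by -0.11 ± 0.07, H4c3 by -0.09 ± 0.07 and H4c9 by -0.04 ± 0.07.

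The brightest H4 rows were nearly constant. H4c4 averaged 13.87 ± 0.04 in E4bp4-/- and 13.88 ± 0.03 in E4bp4+/+ marrow (SD, n = 6 each), and the interval of its difference ran from -0.08 to 0.06. H4c14 differed by -0.01 ± 0.05 (SE). All 6 H4 genes were highest on E4bp4+/+ replicate 6.

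H3 had the class median furthest from 0, at -0.17, with all 3 genes below 0, and H3c15 and H3c4 had the widest errors of the 27. The class median ran from -0.30 without E4bp4+/+ replicate 1 to -0.10 without E4bp4+/+ replicate 4, and was -0.11 without E4bp4-/- replicate 1 or E4bp4+/+ replicate 3. H3c15 ran from 7.63 to 9.003 with a median of 8.91 in E4bp4-/- marrow, against 8.03 to 9.62 with a median of 8.99 in E4bp4+/+ marrow. The difference of -0.33 ± 0.31 log2 (SE, n = 6 each) had a 95% interval from -0.9997 to 0.35, a limma adjusted p of 0.644 and an exact permutation p of 0.379. It was -0.14 without E4bp4-/- replicate 1, -0.18 without E4bp4-/- replicate 4, -0.17 without E4bp4+/+ replicate 4 and -0.49 without E4bp4+/+ replicate 1. H3c4 differed by -0.11 ± 0.29, and by 0.04 without E4bp4-/- replicate 1 and 0.01 without E4bp4-/- replicate 4. H3c7 averaged 5.99 ± 0.26 in E4bp4-/- and 6.17 ± 0.27 in E4bp4+/+ marrow (SD), a difference of -0.17 with an interval from -0.48 to 0.13.

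The arrays of H3c4 and H3c15 split in a way that did not follow genotype. H3c15 was at 7.63 and 7.78 on E4bp4-/- replicates 1 and 4, and between 8.89 and 9.003 on the other E4bp4-/- arrays. It was at 8.03 and 8.47 on E4bp4+/+ replicates 1 and 2, and between 8.96 and 9.62 on the other E4bp4+/+ arrays. The same 4 arrays were the lowest for H3c4, for the linker gene H1f3 and for H2bc8. H3c4 was at 8.92 and 9.05 on the first pair and at 8.82 and 9.35 on the second, while no other array was below 9.79. These 4 of 27 histone genes, or 14.8%, compare with 151 transcript clusters, or 0.511%, of all those tested. The 4 arrays were set by H3c15 itself, so H3c15 is counted in both by construction. The shares are a description and not a test.

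The pattern crossed histone classes and chromosomes. H3c15 lies on chromosome 3 and H1f3, H2bc8 and H3c4 lie on chromosome 13. Of the 151 transcript clusters that shared it, 71, or 47%, named no gene, beside 31.2% of all those tested. It appeared in 0 of the 22 rows annotated to several histone genes. The labels name no batch, RNA quality value or array date, so its source was not tested. The 4 genes were picked for this after their values were seen.

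**Figure D3:**
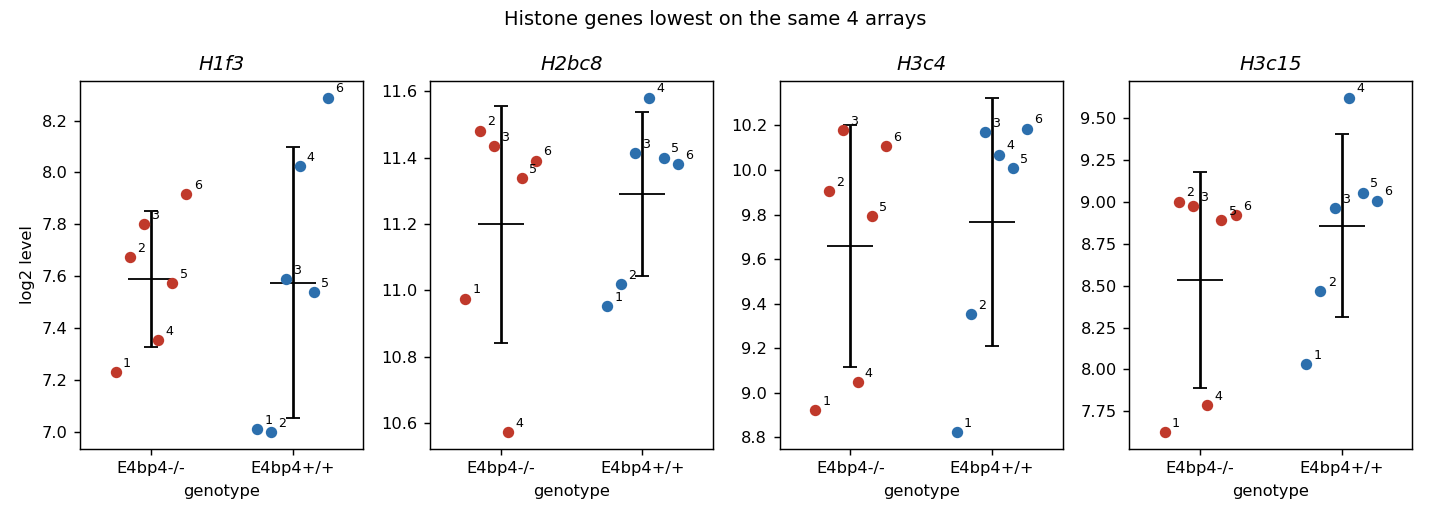
Log2 levels of H1f3, H2bc8, H3c4 and H3c15 on each array, E4bp4-/- left and E4bp4+/+ right; numbers are replicate numbers, and bars give the mean ± SD of 6 arrays. E4bp4-/- replicates 1 and 4 and E4bp4+/+ replicates 1 and 2 are the lowest 4 arrays in every panel.

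Single arrays also set the ends of the other histone genes. E4bp4-/- replicate 1 was the lowest array for 15 of the 27, beside 18.7% of all transcript clusters, and E4bp4-/- replicate 4 for another 6, beside 6.1%. E4bp4+/+ replicate 6 was the highest array for 13 of the 27, beside 9.63% of all. Averaged over the 27 genes, levels relative to each gene's mean were -0.19 on each of E4bp4-/- replicates 1 and 4. The remaining E4bp4-/- arrays lay between -0.01 and 0.07, and the E4bp4+/+ arrays between -0.03 and 0.14. Apart from those 2 low arrays, the genotypes overlapped. The classes differed: H3 averaged -0.75 on E4bp4-/- replicate 1 and -0.64 on E4bp4-/- replicate 4. In the same order, H1 was at -0.10 and -0.195, H2A at -0.15 and -0.03, H2B at -0.09 and -0.16, and H4 at -0.17 and -0.09. E4bp4+/+ replicate 2 was at -0.16 in H1. The neutrophil granule genes were highest on E4bp4-/- replicate 1 but at 6.46 on E4bp4-/- replicate 4, within the E4bp4+/+ range, and their part in the histone levels was not tested.

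**Figure D4:**
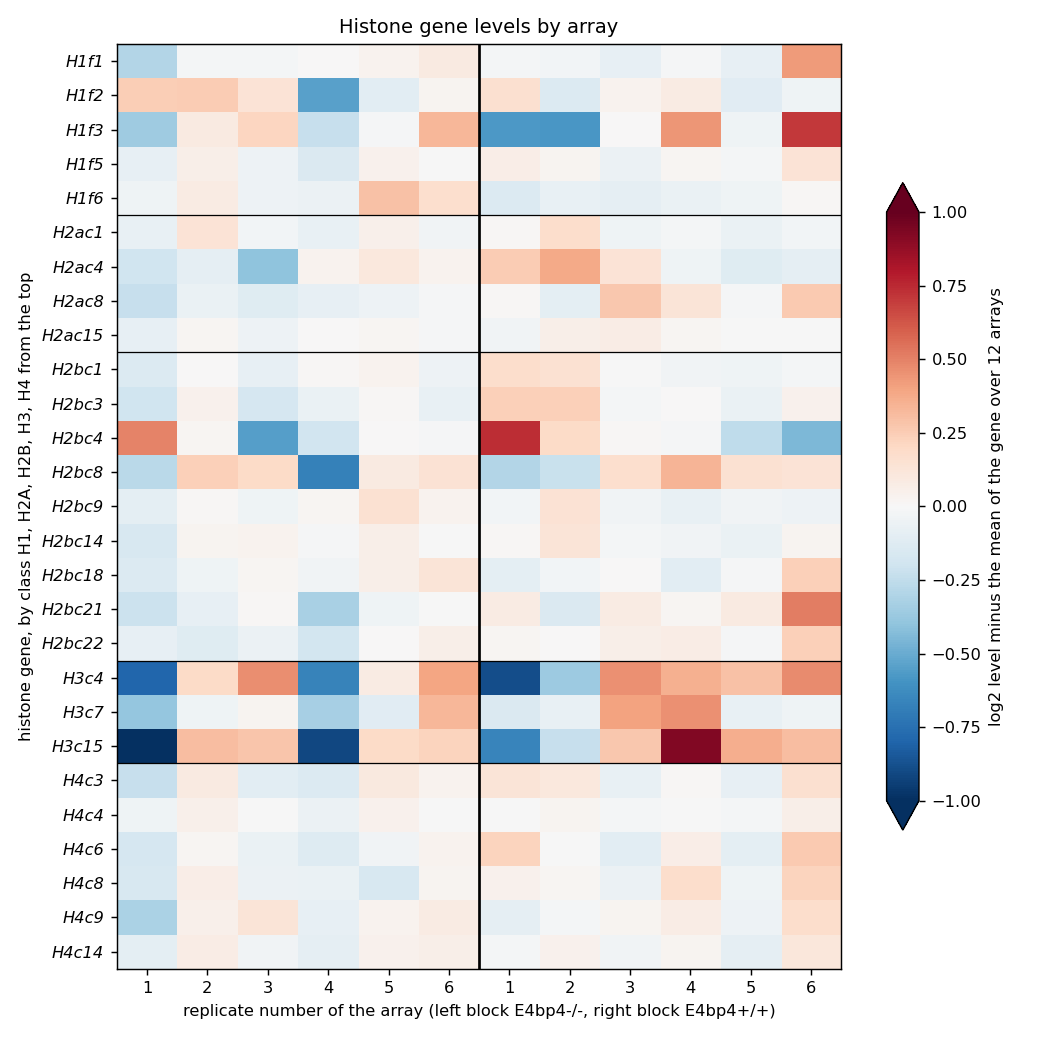
Log2 level minus the gene's mean over 12 arrays for each of the 27 histone genes, with the 6 E4bp4-/- arrays left of the line and the 6 E4bp4+/+ arrays right of it; blue is below and red above the mean. E4bp4-/- replicates 1 and 4 are blue in most rows, E4bp4+/+ replicate 6 is red in many, and the rows of H3c4 and H3c15 vary most.

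Differences were smallest in the brightest rows, while spread did not fall steadily with level. The 7 histone genes with a mean log2 level of 12 or more had absolute differences of at most 0.07 and within-group SDs from 0.04 to 0.17, with a median of 0.07. The 9 with a mean from 9 to 12 had absolute differences of at most 0.17 and SDs from 0.11 to 0.55, with a median of 0.20. The 11 with a mean under 9 had absolute differences of up to 0.33 and SDs from 0.08 to 0.60, with a median of 0.12. The highest value on any array was 14.33, so H4c4 lay near the top of the scale. Levels are those of each row's own probes and give no order of abundance among genes.

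Most histone genes lie on chromosome 13, which also carries Nfil3. Of the 23 genes there, 19 were below 0, with a median of -0.07. All 4 genes on chromosome 3, H2bc18, H2bc21, H3c15 and H4c14, were below 0, with a median of -0.11. The 2 sets were not tested against each other.

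The 22 rows annotated to several histone genes were not used in choosing the 27 genes, though their probes can bind the same RNA. Of these, 15 were below 0 and 7 above, with a median of -0.02, and 0 had an unadjusted p under 0.05. The 5 rows of H4 genes were all below 0, with a median of -0.08. Of 9 rows of H3 genes 4 were below 0, with a median of 0.00, and of 6 rows of H2B genes 4 were below 0, with a median of -0.01. Of the shared H3 rows, 6 had a mean level of 13 or more, and these differed by between -0.04 and 0.02. The other 3 differed by -0.15 ± 0.41, -0.16 ± 0.07 and 0.01 ± 0.04 (SE).

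Histone variants outside the gene rule above were listed apart, and many of them are made outside S phase from polyadenylated mRNAs. Of 10 listed variant genes tested, 6 were below 0 and 4 above, with a median of -0.02. Of these 0 had an unadjusted limma p under 0.05, beside 14.9% of all transcript clusters in either direction. H1f7, a linker histone of the testis, had the lowest limma p, with a difference of 0.11 ± 0.06 log2 (SE, n = 6 each; limma adjusted p 0.417). H2az1, the gene of the variant H2A.Z, differed by -0.05 ± 0.03 (SE, n = 6 each; limma unadjusted p 0.1135, adjusted p 0.441). Its exact permutation p was 0.00866, with an SD of 0.03 in each genotype.

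Of 16 genes that transcribe histone genes or process their mRNA, 12 were below 0, and 4 had an unadjusted p under 0.05 on the lower side and 1 on the higher. Over all transcript clusters 44.1% were below 0, and at that threshold 6.39% were lower and 8.47% higher. Snrpe, an Sm protein shared by spliceosomal particles and the U7 particle that cuts histone mRNA, differed by -0.20 ± 0.06 log2 (SE, n = 6 each; limma adjusted p 0.224). Slbp, on its brighter row, was at 10.83 ± 0.13 in E4bp4-/- and 11.03 ± 0.11 in E4bp4+/+ marrow (SD). Of 24 replication genes of S phase all were below 0, with a median of -0.13, and 15 had an unadjusted p under 0.05, led by the helicase subunit Mcm4 and the origin factor Orc1. These counts were not refitted without E4bp4-/- replicate 1. On that array Orc1 was at 8.61 and Mcm4 at 11.31, each the lowest of the 12 arrays. Most genes of the list, though not all, were lowest there, beside 18.7% of all transcript clusters. Among the exceptions, Pcna was at 13.23 and Cdk2 at 10.29 on that array. How far that array carries the counts was not tested. The histone genes' median of -0.07 lay between that of the replication genes and the 0.02 of all transcript clusters. No gene of these 3 lists passed the adjusted threshold, and the lists were not tested against the histone genes.

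**Figure D5:**
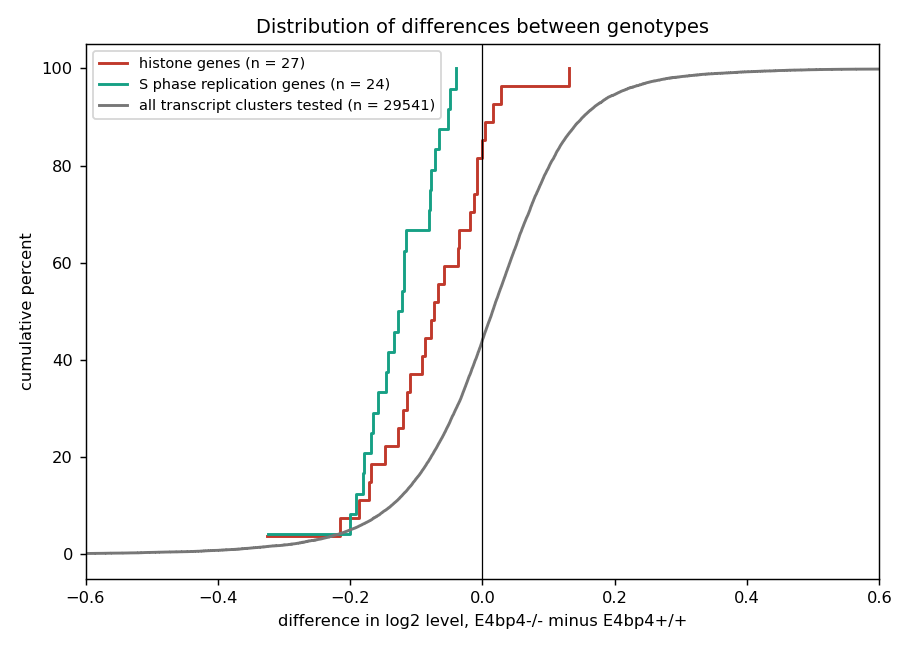
Cumulative percent of genes against the difference in log2 level, E4bp4-/- minus E4bp4+/+, for the 27 histone genes, the 24 replication genes of S phase and all 29541 transcript clusters tested. The histone curve reaches 85.2% at 0, where the curve of all transcript clusters reaches 44.1%.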

How the data were processed

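The authors deposited log2 levels per transcript cluster, normalised by RMA16 in GeneSpring GX 11, as the series design text states. Labelled cDNA was made from 100 ng of RNA, per the labels' protocols. That the values are log2 was read from their span, 3.18 to 14.33. The probe annotation behind the summaries was not used here. RMA is meant to give arrays a common distribution, which can hide a shift shared by most genes. The deposited arrays did not fully share a distribution, as their medians ran from 6.50 to 6.62. Quantile normalisation of the deposited values changed the count of histone genes lower in E4bp4-/- marrow from 23 to 18. It changed the share of all transcript clusters below 0 from 44.1% to 47.75%. Rows were named from the platform annotation.

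Of 34760 transcript clusters, 29541 were tested: those at or above the 20th percentile of their own array on 1 array or more. The test was limma 3.58.1 under R 4.3.3 (lmFit and eBayes without covariates, Benjamini-Hochberg at 0.05), with scripts tested on simulated data. Exact permutation tests are two-sided over 924 splits of the 12 arrays, and the number of arrays limits the precision.

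The 27 genes, the lists and the tests were chosen with earlier results of these data known. In each class the genes named by rule were the 3 of lowest p, the 2 of highest mean level and the largest positive difference, 19 in all. The other 8 were chosen after their values were seen. Outside the 27, the rule named Nfil3 and up to 2 genes of lowest p in each list; other marker genes are named as list members. Alternatives covered filters, scaling, array weights, the replicate number as a block and each array left out. Testing only rows that name 1 gene was added after seeing the data.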

Additional observations from a re-analysis of the deposited data

Results flagged for a closer look

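For each gene and genotype, the highest and lowest of the 6 arrays were held against Dixon's 95% critical value for the gap to the next array. Among 54 such sets, 8 values passed it, and about 2.7 would by chance. On E4bp4-/- replicate 1, H1f1 was low at 11.86 and H2bc14 at 12.46. On E4bp4+/+ replicate 6, H1f1 was high at 12.57, H2bc18 at 10.56, H2bc21 at 7.64 and H2bc22 at 6.82. On E4bp4+/+ replicate 2, H2ac1 was high at 9.05 and H2bc9 at 12.20.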

How the results depend on the processing

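Under every alternative 0 histone genes passed the adjusted threshold. Over all transcript clusters 0 passed, except 5 with array weights and 0 to 4 with single arrays left out (4 without E4bp4-/- replicate 1, 1 each without E4bp4-/- replicate 2 and E4bp4+/+ replicate 2). The count of histone genes lower at an unadjusted p under 0.05, which was 4, became 7 after median centring, where 12.6% of all transcript clusters were lower at that threshold against 6.39% without centring, 2 with array weights, where 6.23% were, and 1 to 4 with single arrays left out; it was 1 without E4bp4-/- replicate 1, E4bp4-/- replicate 4 or E4bp4+/+ replicate 6, and 2 without E4bp4+/+ replicate 1. The count below 0 ran from 17 to 25 with single arrays left out and was 19 with array weights. Centring moved the median of all transcript clusters by -0.04 and gave 59.6% of them below 0, against 44.1% without it. Centring subtracts 1 value per array, so every difference moved by the same -0.04. Relative to the median of all transcript clusters, the histone median was -0.089 both with and without centring, with 24 genes below. The cause of the other changes was not tested.

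Small differences changed sign. After median centring H1f2 was at -0.0360, H1f3 at -0.0240 and H2bc9 at -0.0126. After quantile normalisation H2ac1 was at 0.0033, H2bc14 at 0.0023, H2bc18 at 0.02, H4c4 at 0.0071 and H4c14 at 0.0152. With array weights H1f2 was at -0.0172, H2ac1 at 0.0131, H2bc14 at 0.0085, H2bc18 at 0.019, H4c4 at 0.0017 and H4c14 at 0.0068. With single arrays left out the ranges were -0.0921 to 0.011 for H1f1, -0.0461 to 0.1136 for H1f2, -0.099 to 0.159 for H1f3, -0.0375 to 0.0246 for H2ac1, -0.1839 to 0.0637 for H2bc4, -0.1598 to 0.0333 for H2bc8, -0.0328 to 0.0116 for H2bc14, -0.0272 to 0.0472 for H2bc18, -0.2979 to 0.0383 for H3c4, -0.0196 to 0.0017 for H4c4, -0.0658 to 0.023 for H4c9 and -0.0331 to 0.0078 for H4c14.

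With the replicate number as a block, 4 histone genes were lower and 1 higher at an unadjusted p under 0.05, and the lowest adjusted p was 0.225. H2bc3 no longer had such a p under the block, at 0.0556, while H4c8 (0.0482) and, on the higher side, H1f6 (0.0339) did. After quantile normalisation the count on the lower side was also 4, with H4c8 (unadjusted p 0.0277) in place of H2bc3 (0.0805). The replicate numbers were not taken as pairs in the main fit, since the labels do not name pairs. Of 6 pairs 3 had a correlation of deviations over 0.1: 0.46 for replicate 1, 0.19 for replicate 5 and 0.17 for replicate 6. The others ran from -0.03 to 0.07. In all, 3 E4bp4-/- and 1 E4bp4+/+ arrays correlated best with their own number. Averaging several rows of a gene was not run, since each histone gene had 1 row.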
